A study of Mus musculus with 2 samples.

Results

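Mouse epiblast-like cells taken after 48 h of differentiation (48h-EpiLCs) were compared between 2 lines that had been mixed in equal numbers in 1 droplet scRNA-seq library, a Cnot8 KO line and a WT line. The members are single cells sorted in silico by tag transcripts. A barcode was kept if it had 1000 or more detected genes and no more than 10% of its UMIs (unique molecular identifiers, each standing for 1 captured transcript) in mitochondrial genes. A kept cell entered the WT class when it held at least 1 UMI of tdTomato and none of the Y-linked genes Ddx3y, Eif2s3y, Kdm5d and Uty. It entered the KO class when it held no tdTomato UMI and at least 2 UMIs summed over those Y-linked genes. Of the 9400 cells kept in the 48h-EpiLC library, 2977 (31.7%) were KO cells and 368 (3.91%) were WT cells, so 3345 cells were compared, out of 20454 kept cells in both libraries of the series. Because tdTomato and Y-linked transcripts chose the classes, the 63.3 CPM (UMIs of a gene scaled to 1000000 UMIs of its class) of tdTomato in WT and the 0 in KO are a description of that choice.

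The labels give the strain of both libraries as ICR. The WT cells carried the ROSA mT/mG allele, whose membrane-targeted tdTomato is transcribed from a broadly active locus. By the methods of the study, the KO line came from a blastocyst of a mating between Cnot8 heterozygotes whose founders had been made with Cas9 and a guide to exon 2, and a single colony was picked for propagation. Both lines were held on Matrigel in N2B27 medium with 1% KSR, 20 ng/ml of activin A and bFGF at 12 ng/ml, a protocol that drives naïve ESCs towards the formative state. The genotype field of the labels reads wild type for both libraries, whereas their titles name WT and KO cells. Each genotype was therefore 1 line, and the deletion, the sex of the line, its genetic background and its clonal history cannot be told apart in any difference given here. There was 1 library and no replicate, so no test was run. All intervals are 95% intervals that cover counting error only.

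The Ccr4-Not complex is the main cytoplasmic deadenylase of animal cells. Its catalytic subunits shorten the poly(A) tail of an mRNA, after which the transcript is usually decapped and degraded from its 5′ end or taken up by the exosome. Cnot8 and its close paralog Cnot7 occupy the same place in the complex, next to Cnot6 or Cnot6l, while Cnot1 is the scaffold that holds the subunits together. Cells that leave naïve pluripotency switch off factors such as Esrrb, Klf2 and Zfp42 and switch on formative factors such as Fgf5, Otx2 and Pou3f1, and removal of the older mRNAs is one of the steps of that change.

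The target of the Cnot8 guide is shown because it decides what the counts can say about the knockout. It lies at chr11:58109653-58109675 on the minus strand of GRCm38, within the coding part of exon 2 in the GENCODE transcripts Cnot8-201, Cnot8-202 and Cnot8-204 (Cnot8 spans chr11:58104153-58118594 on the plus strand). The bases read from those transcripts run 5′ to 3′ along the guide strand, and the capitals mark the PAM.
Cnot8 exon 2 target: ctgttttctacaagtgccgcAGG

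A lesion at this site leaves the 3′ end of the transcript in place, and the libraries were read from 3′ ends, so Cnot8 counts do not check the label. Cnot8 stood at 62.6 CPM in KO cells (60.6 to 64.6) and at 49.7 CPM in WT cells (44.3 to 55.5), a log2 ratio of KO over WT of 0.33 (0.16 to 0.50). Here and below log2 ratios are taken on CPM + 1, so that ratios of low genes are understated. In the ESC library, where the same rule gave 2925 KO and 434 WT cells, Cnot8 stood at 72.7 and 42.9 CPM (0.75).

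KO cells were somewhat deeper than WT cells. Their median was 17628 UMIs and 4467 genes, against 15598 UMIs and 3992 genes in WT, and the classes held 59291903 and 6219834 UMIs in all. These depths depend on the class rules, since a higher tag count is met more often in deeper cells. Cells without tdTomato had medians of 14017 UMIs at a Y-linked sum of 0, 14852 at 1 and 16392 at exactly 2. The depth of the lines apart from that choice was not measured. Median mitochondrial shares were 3.17% and 2.94%. Of the 3012 cells with at least 2 Y-linked UMIs, 35 (1.16%) also held tdTomato, while 7.74% of the 452 tdTomato cells held at least 2 Y-linked UMIs. Cells with both tags, which had a median of 27525 UMIs, were in neither class. Cells with neither tag were the largest group (4247 cells) and were not assigned. The libraries shared 41 barcodes, or 0.330% of the barcodes of this one.

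The values at the thresholds are given once, as a description. The 1238 cells just inside the KO class (exactly 2 Y-linked UMIs) had 95.4 CPM of Zfp42 and 130 CPM of Ipp, and the 1724 cells just outside it (1 Y-linked UMI) had 87.1 and 105. The 344 cells just inside the WT class (exactly 1 tdTomato UMI) had 36.6 CPM of Zfp42 and 16.6 of Ipp. The 49 tdTomato cells with 1 Y-linked UMI had 60.6 and 63.7. Cells just outside each class thus lay between the class values.

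Of 7585 genes with a mean of at least 10 CPM over both classes, tag genes left out, 504 (6.64%) were at least 1.5-fold higher in KO cells and 283 (3.73%) were at least 1.5-fold lower. The median log2 ratio of all 7585 genes was 0.07, so most genes lay above 0. Lists and their counts above or below 0 are read against that value and those 2 percentages below. The share of all genes above 0 is not given, so a count by sign only describes its list. At 2-fold, 136 genes (1.79%) were higher and 63 (0.831%) lower. With TMM scaling factors in place of class totals the split was 413 higher and 347 lower. When both classes were limited to cells of at least 20000 UMIs and the WT class was defined by the absence of a Y-linked UMI alone (1126 KO and 742 WT cells), 236 genes were higher and 110 lower. A gene passed the 10 CPM minimum in part through the class in which it was high, so members of a list that passed are never all its members.

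**Figure D1:**
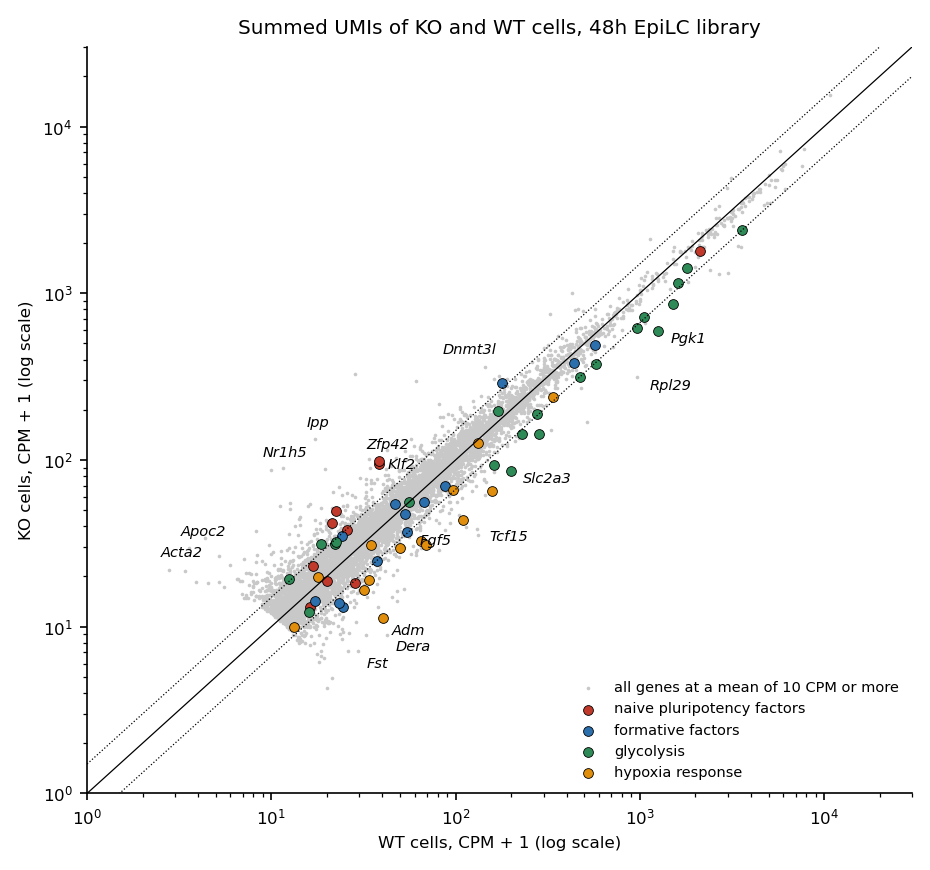
Summed CPM + 1 of each of 7585 genes in WT cells (x axis, log scale) and KO cells (y axis, log scale) of the 48h-EpiLC library, with lines at equality and at 1.5-fold. Coloured points are members of the naïve, formative, glycolysis and hypoxia lists. Most genes lie between the dotted lines, and the labelled genes Nr1h5, Ipp and Apoc2 lie far above while Fst and Rpl29 lie below.

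Several naïve transcripts were higher in KO cells, and others of the same list were lower. Of 18 naïve factors 10 reached 10 CPM, of which 4 were higher by 1.5-fold and 1 lower, with a median log2 ratio of 0.52 (0.07 over all genes). Zfp42 (Rex1), a zinc finger factor long used as a mark of naïve cells, stood at 97.1 CPM in KO (94.7 to 99.7) and 37.5 in WT (32.8 to 42.6), a log2 ratio of 1.35 (1.17 to 1.54). Klf2, a Krüppel-like factor of the naïve network, stood at 93.1 and 37.5 CPM (1.29, 1.11 to 1.48). Dppa3 (Stella), which protects DNA from the maintenance methylation machinery, stood at 48.4 and 21.5 CPM (1.13, 0.89 to 1.38). Zfp57, a zinc finger protein that keeps imprints methylated, stood at 40.7 and 20.4 CPM (0.96, 0.72 to 1.22), or at 0.10 against the 24 WT cells of at least 2 tdTomato UMIs, a setting added after seeing the data. These 4 were the members past 1.5-fold. All 504 genes past it on the high side had a ratio interval above 0, so such intervals add nothing to the call.

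Nanog, the homeobox factor of the core and naïve networks, went the other way, with 17.2 CPM in KO (16.2 to 18.3) and 27.5 in WT (23.5 to 31.9), a log2 ratio of -0.65 (-0.87 to -0.41). Under 3 of 16 other settings Nanog lay inside the 1.5-fold limit. The 16 include changes of the CPM minimum, which cannot move the ratio of a gene. Klf5 stood at the edge of the limit at 37.2 and 24.6 CPM (0.58), and Dppa5a, an abundant RNA-binding protein of pluripotent cells, at 1793 and 2118 CPM (-0.24). The naïve genes below the minimum were mostly higher in KO: 7 of 8 had a log2 ratio above 0. Esrrb, an orphan nuclear receptor, stood at 11.3 and 3.54 CPM (1.44, 0.94 to 1.95) and Tfcp2l1, a grainyhead-like factor, at 7.24 and 1.93 CPM (1.49, 0.90 to 2.06). Tbx3, a T-box factor, stood at 2.34 and 0.482 CPM and Jam2 at 2.01 and 0.482, both near the floor in WT. Prdm14 stood at 0.388 and 0 CPM, with an interval (-0.22 to 0.47) that included 0. Klf4 was the gene below 0, with 4.94 and 8.52 CPM (-0.68, -1.06 to -0.29). Over all 18 genes 13 were above 0 and 5 below. Most of all genes compared were also above 0, so this split is a description and not a result about the list.

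In the ESC library the naïve list had a median log2 ratio of 0.22. There Zfp42 stood at 613 CPM in KO and 302 in WT, Klf2 at 467 and 400, and Dppa3 at 13.1 and 16.2. Zfp42 was thus higher in KO at both stages, while the Klf2 and Dppa3 ratios of 0.22 and -0.29 in ESCs stood beside 1.29 and 1.13 in 48h-EpiLCs. The difference between stages was not tested, since each stage was 1 library. The paper lists the ESCs of this library as S/LIF cells (serum with LIF), a medium other than that of its ESC culture in general. The effects of stage, library and culture medium cannot be told apart.

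The core pluripotency factors lay within 1.5-fold, 10 of 10, with a median of -0.04. Pou5f1 (Oct4) stood at 82.4 CPM in KO and 109 in WT (-0.40, -0.52 to -0.29), and Sox2, its partner on DNA, at 129 and 95 (0.43, 0.31 to 0.55). Those partners therefore lay on opposite sides of equality. Tdgf1, a co-receptor for Nodal, stood at 483 and 641 CPM (-0.41) and Utf1, a chromatin-bound factor of pluripotent cells, at 937 and 766 (0.29).

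Formative factors were more often lower. Of 14, 13 reached 10 CPM, with 1 higher, 3 lower and a median of -0.26. Sox3, a SoxB1 factor of the later epiblast, stood at 12.1 and 23.6 CPM (-0.91, -1.15 to -0.65), Sall2 at 12.8 and 22.3 (-0.76) and Zic2 at 23.6 and 36.5 (-0.61, inside the limit under 3 of 16 other settings). Fgf5, the growth factor most used to mark the formative state, stood at 35.9 CPM in KO (34.4 to 37.5) and 53.4 in WT (47.8 to 59.4), just inside the limit at -0.56 (-0.72 to -0.39). Otx2 and Pou3f1, which act together at formative enhancers, stood at -0.17 and -0.19. With WT limited to the 24 cells of at least 2 tdTomato UMIs, the Sox3 ratio changed sign to 0.11. The de novo methyltransferase Dnmt3a was the member that was higher, with 287 and 177 CPM (0.69, 0.60 to 0.78), while its relative Dnmt3b stood at 490 and 567 (-0.21). The formative program was therefore present in both classes, and 10 of its 13 measured members lay below 0.

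**Figure D2:**
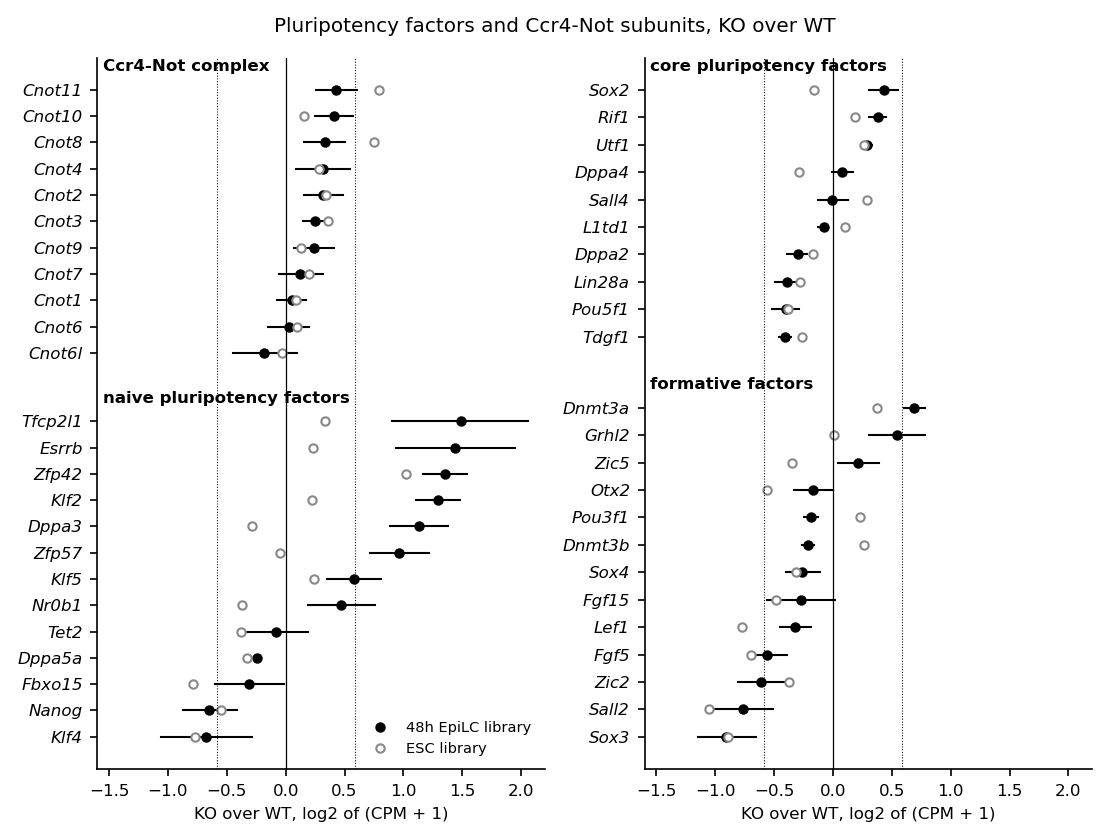
Log2 ratio of KO over WT (x axis, CPM + 1) of the Ccr4-Not subunits and the naïve, core and formative factors with at least 5 CPM in 1 class. Filled points with 95% counting intervals are the 48h-EpiLC library, open points the ESC library, and dotted lines mark 1.5-fold. In 48h-EpiLCs Zfp42 and Klf2 lie right of the upper line, Nanog and Sox3 left of the lower one, and the core factors lie between the lines.

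The shares of cells with a UMI pointed the same way as the sums. Each cell was thinned to 5000 UMIs, which left out 9 KO cells and 1 WT cell as shallower. Zfp42 was then seen in 33.9% of KO cells (32.2 to 35.6) and 17.7% of WT cells (13.9 to 22), against 68.4% and 41.8% unthinned. Klf2 was seen in 30.6% and 12.8%, Dppa3 in 18.9% and 9.54%, Nanog in 7.85% and 13.1% and Fgf5 in 15.1% and 24.5%. No cell type that lacks these genes was named in this library, so the level that free RNA alone would give is unknown. The crossings of the tags, 1.16% of Y-tagged cells with tdTomato and 7.74% of tdTomato cells with at least 2 Y-linked UMIs, mix doublets with free RNA and do not measure it. Summed over the whole naïve list, thinned cells held a median of 10 UMIs in KO and 11 in WT, where Dppa5a outweighs the other members.

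Genes of DNA methylation differed in both directions, and the Polycomb genes past 1.5-fold were higher. Dnmt3l, the catalytically inactive partner of the de novo enzymes, had a Poisson interval of 357 to 367 CPM in KO and of 134 to 153 CPM in WT, a log2 ratio of 1.33, and was seen in 78.6% and 44.7% of thinned cells. In ESCs it stood at 480 and 400 CPM. Tet3, a dioxygenase that oxidises methylcytosine, stood at 8.18 and 14.5 CPM (-0.75), whereas Tet1 stood at 239 and 178 (0.42). Of 10 measured genes of methylation and demethylation 3 were higher and 1 lower (median 0.27). Of the higher ones, Dppa3 and Dnmt3a were also counted in the naïve and formative lists above. Of 12 Polycomb and chromatin genes 2 were higher and none lower (median 0.33): Suz12, a core subunit of PRC2, at 184 and 113 CPM (0.70) and Epop, an accessory subunit, at 187 and 90.5 (1.04).

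Subunits of Ccr4-Not other than Cnot8 were close to WT. All 11 members lay within 1.5-fold and 10 lay above 0, with a median of 0.25 (0.07 over all genes). The paralog Cnot7 stood at 42.7 and 39.1 CPM (0.12, -0.06 to 0.32), the scaffold Cnot1 at 102 and 97.9 (0.05), and the catalytic Cnot6 and Cnot6l at 0.03 and -0.18. Cnot11 and Cnot10, which form a module at the N terminus of Cnot1, stood highest at 0.43 and 0.41. Among 23 deadenylation partners and poly(A)-binding proteins 1 was lower and none higher (median -0.07). The lower one was Btg3, of the Tob and Btg family that recruits the Cnot7 and Cnot8 deadenylases, with 85.0 and 136 CPM (-0.67), and the gene lies on chromosome 16, treated below. Tob1 stood at -0.07 and Pabpc1, the main cytoplasmic poly(A)-binding protein, at 0.08. No member of the decapping, exosome and nonsense-mediated decay list passed the limit in either direction (23 measured, median 0.04). Of 12 snoRNA host genes, many of whose spliced RNAs are substrates of nonsense-mediated decay, Snhg6 was lower (33.6 and 54.7 CPM, -0.69) and none higher (median -0.05).

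The genes with the largest ratios were named by a rule, the 20 highest and the 20 lowest of those with at least 20 CPM in 1 class. The 20 highest spanned log2 ratios of 1.58 to 3.13. Nr1h5, a nuclear receptor of the farnesoid X receptor type, stood first with 86.6 CPM in KO (84.3 to 89.0) and 9.0 in WT (6.8 to 11.7), and was seen in 34.0% and 3.27% of thinned cells. Apoc2, the cofactor of lipoprotein lipase, followed with 28.5 and 2.57 CPM (3.05, 2.50 to 3.58). Acta2, smooth muscle actin, stood at 20.9 and 1.77 CPM (2.98, 2.39 to 3.54). Ipp, a kelch protein, stood at 132 and 16.2 CPM (2.95, 2.68 to 3.23). The high end also held the meiotic break factor Rec114 (36.5 and 7.23 CPM), the interferon-induced Oasl2 (22.3 and 4.98 CPM), galectin-3 (Lgals3, 25.8 and 7.4 CPM) and the inositol phosphatase Inpp5d (51.6 and 14.8 CPM). Gene models without a gene name would have ranked among them and were passed over.

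At the low end the 20 genes spanned -2.25 to -1.43. Dera, an aldolase that breaks down deoxyribose phosphate, stood at 7.96 CPM in KO and 41.5 in WT (-2.25, -2.45 to -2.03). Meis2, a TALE homeobox factor, stood at 3.90 and 20.3 CPM (-2.12). Fst (follistatin), which binds and neutralises activin, stood at 6.11 CPM in KO (5.49 to 6.77) and 28.5 in WT (24.4 to 33.0), a log2 ratio of -2.05. Tcf15, a bHLH factor linked to the exit from naïve pluripotency, stood at 37.6 and 130 CPM (-1.76, -1.88 to -1.64) and was seen in 14.6% and 46.0% of thinned cells. Pim2, a serine/threonine kinase, stood at 168 and 518 CPM (-1.62), and the SoxC factor Sox11 at 27.9 and 80.1 CPM (-1.49). Xlr3b and Xlr3c were also among the 20, but as near-identical X-linked copies they can share reads.

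The same genes were looked up in the ESC library. Of 7555 genes measured there 10.5% were higher and 4.73% lower. The 20 high genes had log2 ratios of 0.25 to 3.51 and the 20 low genes -2.32 to -0.25. Ipp stood at 3.51 there and 2.95 in 48h-EpiLCs, and Dera at -2.21 and -2.25. Hsd17b14, a steroid dehydrogenase, was the high gene nearest to equality in ESCs (0.25, against 1.58 in 48h-EpiLCs), and Fosb the low one (-0.25, against -1.54).

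**Figure D3:**
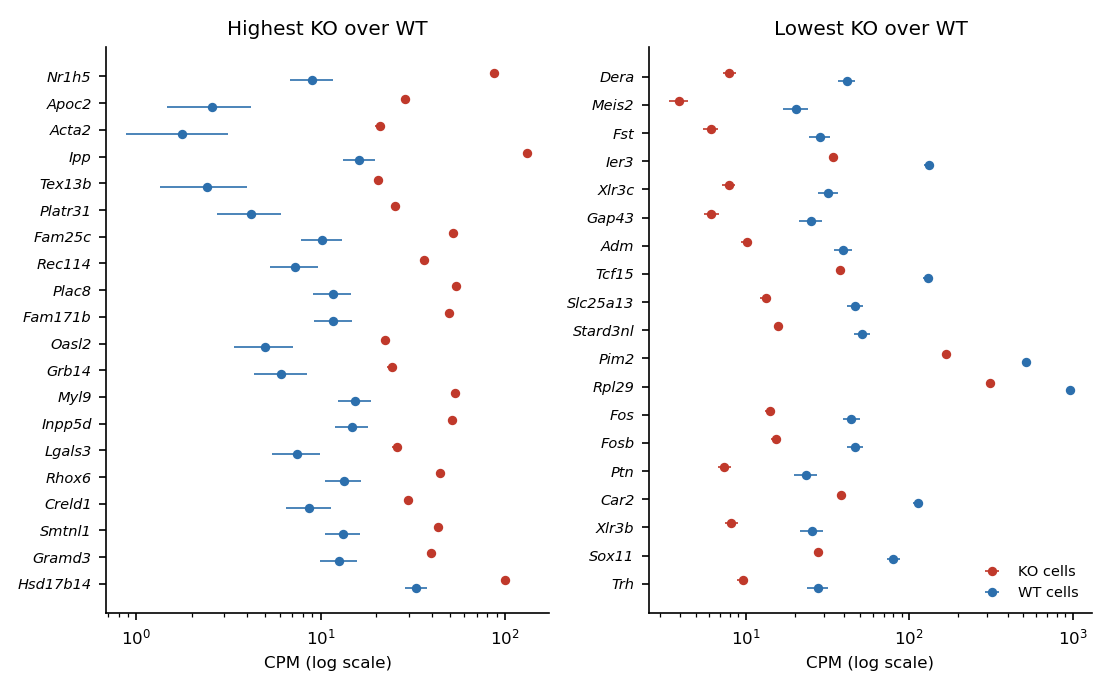
Summed CPM (x axis, log scale) of the 20 genes with the highest ratio and 19 of the 20 with the lowest in KO and WT cells of the 48h-EpiLC library, with 95% Poisson intervals. These genes were chosen by their ratios, so the gap between their classes follows from that choice. They run from Nr1h5 (86.6 and 9.0) to Dera (7.96 and 41.5).

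Many glycolytic and hypoxia-inducible transcripts were lower in KO cells. All steps from glucose uptake to lactate export are covered by the 21 members of the glycolysis list, which all reached 10 CPM. Of these 9 were lower by 1.5-fold, 2 were higher, and the median was -0.56. The summed level was 9460 CPM in KO and 14259 in WT. The glucose transporters Slc2a3 and Slc2a1 stood at 85.1 and 198 CPM (-1.21, -1.30 to -1.12) and at 142 and 281 CPM (-0.98). Pgk1, which makes the first ATP of the pathway, stood at 595 CPM in KO (589 to 601) and 1255 in WT (1227 to 1283), a log2 ratio of -1.08. Ldha, which reduces pyruvate to lactate, stood at 858 and 1505 CPM (-0.81), and Pfkl, the liver form of the committed step, at 92.7 and 160 (-0.78). Isoforms split: Hk2 stood at 142 and 227 CPM (-0.68) but Hk1 at 18.4 and 11.4 (0.64), and Pfkp at 30.2 and 17.7 (0.74).

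The hypoxia list, made of HIF targets that are mostly outside glycolysis, had 14 measured members, of which 8 were lower and none higher, with a median of -0.79. Its summed level was 740 CPM in KO and 1204 in WT. Adm, the vasoactive peptide adrenomedullin, stood at 10.2 CPM in KO (9.37 to 11) and 39.6 in WT (34.8 to 44.8), a log2 ratio of -1.86. Ddit4, an inhibitor of mTORC1, stood at 42.4 and 109 CPM (-1.34), and Bnip3, a mitophagy receptor, at 64.2 and 157 CPM (-1.28, -1.38 to -1.18). The oxygen-sensing prolyl hydroxylases Egln3 and Egln1 stood at -1.16 and -0.99, and the collagen prolyl hydroxylase P4ha1 at -0.95. Bnip3l, a relative of Bnip3, stood at 125 and 131 CPM (-0.07). In the ESC library the medians were -0.45 for glycolysis and -0.37 for hypoxia.

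Promoters of the hypoxia members Bnip3 and Adm are shown because both were lower in KO cells and the core HIF motif is short enough to read by eye. Each runs from 250 bases before to 50 bases after a RefSeq start on GRCm38.p6, 5′ to 3′ along the strand of the gene, Bnip3 at chr7:138909457-138909756 on the minus strand and Adm at chr7:110627407-110627706 on the plus strand. Capitals mark every match to ACGTG or GCGTG on either strand, where overlapping matches run together.
Bnip3 promoter: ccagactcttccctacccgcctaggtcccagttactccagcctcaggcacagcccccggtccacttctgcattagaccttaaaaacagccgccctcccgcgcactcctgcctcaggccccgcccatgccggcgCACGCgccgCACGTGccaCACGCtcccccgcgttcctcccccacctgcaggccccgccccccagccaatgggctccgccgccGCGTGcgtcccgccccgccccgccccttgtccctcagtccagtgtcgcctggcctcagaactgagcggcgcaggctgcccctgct
Adm promoter: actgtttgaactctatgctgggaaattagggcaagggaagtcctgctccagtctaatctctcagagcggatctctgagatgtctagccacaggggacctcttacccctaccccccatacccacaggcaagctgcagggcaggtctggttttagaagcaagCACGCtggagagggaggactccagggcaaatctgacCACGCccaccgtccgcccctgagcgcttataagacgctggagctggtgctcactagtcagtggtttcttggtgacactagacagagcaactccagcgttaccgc

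Bnip3 held 5 matches and Adm 2. A match was found in 13 of 17 promoters of the hypoxia list (76.5%) and 23 of 28 of the glycolysis list (82.1%), against 5099 of 7735 promoters (65.9%) of all genes compared, and by gene in 12 of 12 (100%) and 17 of 19 (89.5%), against 71.9% of all genes compared. The 7 promoters found for the lower hypoxia members, 7 of 7, each held a match, which the 12 of 12 by gene had already fixed. Of the lower glycolysis members, 9 of 11 promoters (81.8%) held one, and by gene 6 of 8. The lists had 1.42 (hypoxia) and 1.47 (glycolysis) promoters per gene, against 1.27 over all genes compared. A gene with more promoters has more chances of a match. Whether matches go with the lower level was not tested. A match is a description of letters and not of binding.

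Thinned to 5000 UMIs, KO cells held a median of 45.0 glycolysis UMIs and WT cells 69.0. The 5th to 95th percentiles were 30.0 to 66.0 and 44.3 to 101, so the classes overlapped although their middles stood apart. Slc2a3 was seen in 30.3% of KO and 54.2% of WT cells, and Bnip3 in 25.6% and 47.4%. Nuclear-encoded subunits of oxidative phosphorylation did not share the shift, with 27 of 27 within 1.5-fold and a median of -0.04. Of 13 mitochondrially encoded mRNAs 2 were higher, mt-Cytb (4917 and 3132 CPM, 0.65) and mt-Nd3 (0.63), and mt-Co3 stood at -0.56 (median 0.09).

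Immediate early genes, the short-lived transcripts that follow growth factor signals and cell handling, were lower in part. Of 22, 15 reached 10 CPM, with 7 lower, none higher and a median of -0.47. The AP-1 subunits Fos, Fosb and Jun stood at 14.1 and 44.4 CPM (-1.58), at 15.4 and 46.8 (-1.54) and at 27.1 and 59.6 (-1.11). Ier3, an early stress gene, had the lowest ratio at 34.4 and 132 CPM (-1.91, -2.02 to -1.79), Dusp1, a phosphatase of MAP kinases, stood at 40.8 and 92.6 (-1.16), and Egr1 at 74.5 and 141 (-0.91). Myc, Klf6 and Jund stood at -0.21, 0.33 and 0.04. Thinned KO cells held a median of 3 UMIs of the list and WT cells 6.

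Genes of amino acid supply and the integrated stress response were lower in 4 of 18 measured members and higher in none (median -0.33). Asns, asparagine synthetase, stood at 68.7 and 128 CPM (-0.89), Phgdh, the first enzyme of serine synthesis, at 144 and 240 (-0.73), Stc2, a secreted glycoprotein, at 6.16 and 17.5 (-1.37), and Chac1, which degrades glutathione, at 9.90 and 18.8 (-0.86). Atf4, the transcription factor behind the response, stood at 157 and 204 CPM (-0.38). Chaperones of the unfolded protein response did not follow, with 14 of 14 within the limit and a median of 0.002, and Hspa5 (BiP) at 515 CPM in both classes.

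Among signalling pathways single regulators stood out rather than whole lists. In the Nodal and activin pathway 12 members were measured and 1 passed the limit, the inhibitor Fst described above (median -0.12). The ligand Nodal stood at 60.3 and 48.7 CPM (0.30), the feedback inhibitors Lefty1 and Lefty2 at -0.14 and -0.10, and Smad7, an inhibitory Smad, at 84.0 and 122 CPM (-0.53). In the FGF and ERK list 1 of 17 was higher and 2 lower (median -0.17). The ligand Fgf4 stood at 54.7 and 101 CPM (-0.87, -1.0 to -0.75) and the feedback inhibitor Spry4 at 16 and 29.6 (-0.85), while Dusp4, another feedback gene, stood at 75.1 and 41.6 (0.84). In the Wnt list 3 of 11 were lower and none higher (median -0.11). Tcf7l1, the repressor of the TCF family, stood at 37.3 and 59.6 CPM (-0.66), Gsk3b, a kinase that marks β-catenin for destruction, at 48.3 and 81.2 (-0.74), and the ligand Wnt8a at 8.92 and 14.6 (-0.66, or 1.62 against the same 24 WT cells). Gsk3b is a chromosome 16 gene.

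Of the BMP pathway 4 members were measured, and Id3, a dominant-negative bHLH target gene, was lower with 17.7 and 33.8 CPM (-0.89; list median -0.08). Id1, below the minimum, stood at 5.45 and 12.5 CPM (-1.07, -1.40 to -0.73), and Id2 at 20.2 and 20.4. The 5 measured members of the LIF and STAT3 list lay within the limit (median -0.30).

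The p53 list was higher in part. Of 16 measured members 5 were higher, none lower, and the median was 0.28. Eda2r, a TNF receptor family member, stood at 13.9 and 6.11 CPM (1.07, 0.66 to 1.5, or 0.29 against the 24 WT cells of at least 2 tdTomato UMIs), Perp, a membrane protein of desmosomes, at 15.2 and 6.91 (1.04), Ei24 at 86.4 and 51.4 (0.74), Trp53inp1 at 64.0 and 42.0 (0.60) and Mdm2, the ubiquitin ligase of p53, at 164 and 108 (0.60, 0.49 to 0.71), inside the limit under 4 of 16 other settings. Cdkn1a (p21), the cell cycle inhibitor, stood at 90.9 and 105 CPM (-0.20), and Bax at 547 and 512 (0.09). In ESCs the list had a median of -0.15, with Mdm2 at 114 and 113 CPM. No measured apoptosis regulator passed the limit (11 measured, median 0.20).

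Cell cycle lists had medians above that of all genes. Of 20 genes of G2/M and mitosis none passed the limit and 19 lay above 0, with a median of 0.29 against 0.07 over all genes. Cdc20, which activates the anaphase-promoting complex, stood at 336 and 239 CPM (0.49), and Ccnb1 (cyclin B1) at 318 and 235 (0.43). Thinned KO cells held a median of 21 UMIs of the list and WT cells 16, with 5th to 95th percentiles of 13 to 33 and 8 to 28. Thinning does not undo the choice of deeper cells by the tag rule, whose part in these lists was not tested. Of 23 measured genes of replication and G1/S 2 were higher and 1 lower (median 0.20), Mcm6 of the replicative helicase at 239 and 148 CPM (0.68), the licensing factor Cdt1 at 120 and 78.9 (0.60, inside the limit under 8 of 16 other settings) and Ccnd2 (cyclin D2) at 9.06 and 16.7 (-0.82). Replication-dependent histone mRNAs went the other way, with 5 of 17 measured lower, none higher and a median of -0.35. These mRNAs mostly lack a poly(A) tail and are near-identical copies, so their counts are uncertain.

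**Figure D4:**
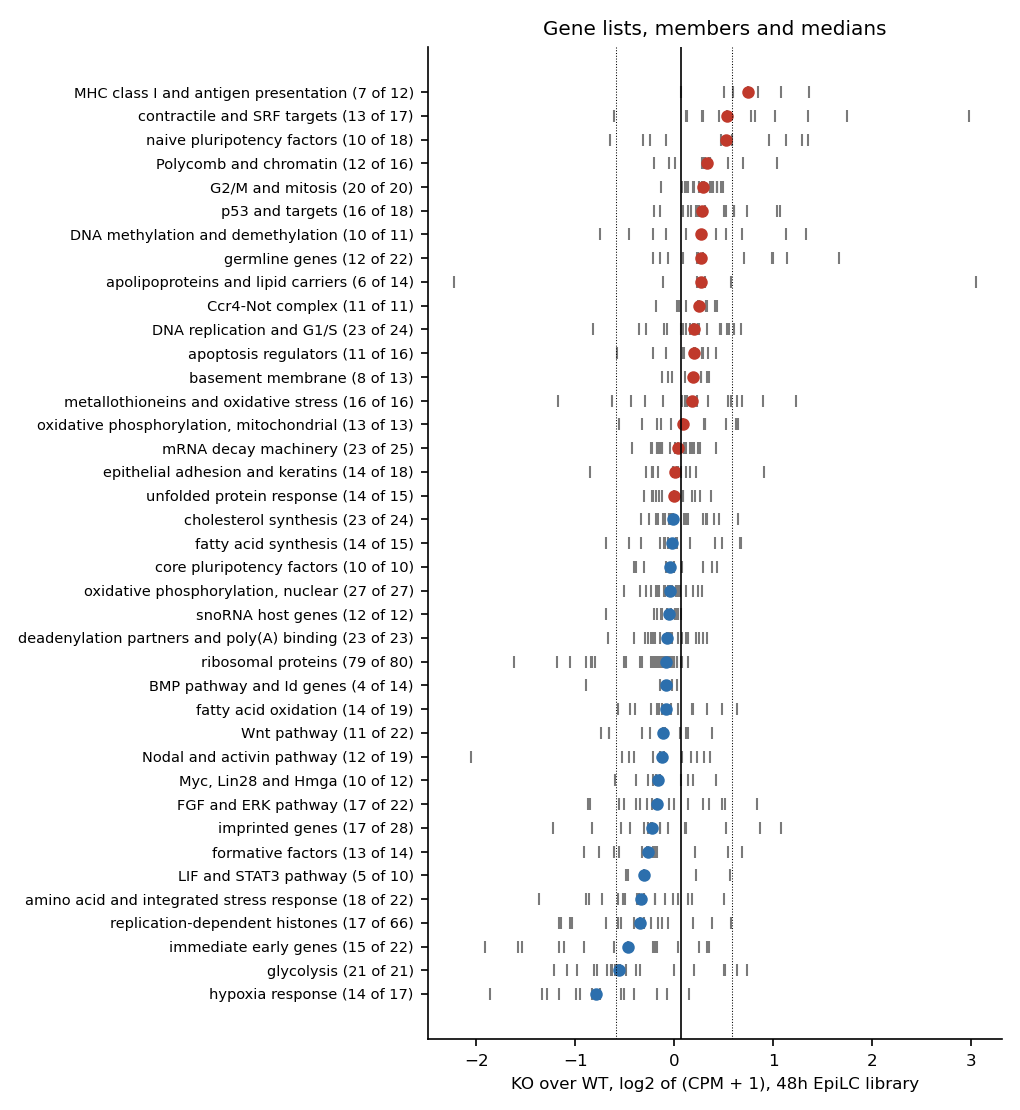
Log2 ratio of KO over WT (x axis, CPM + 1) of the measured members of each gene list with at least 4 of them, 1 tick a gene and a dot at the list median (red above 0, blue below), with dotted lines at 1.5-fold and a solid line at 0.07, the median of all genes. Names carry the members measured and listed. The hypoxia and glycolysis lists have medians of -0.79 and -0.56, and the antigen presentation, contractile and naïve lists 0.75, 0.53 and 0.52.

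Antigen presentation genes were higher in KO cells. Of 7 measured members of the MHC class I list 5 were higher and none lower, with a median of 0.75 (1.00 in ESCs). Psmb9 and Psmb8, catalytic subunits of the immunoproteasome, stood at 22.7 and 8.20 CPM (1.36, 1.00 to 1.74) and at 18.2 and 9.65 CPM (0.85, or -0.13 against the 24 WT cells of at least 2 tdTomato UMIs). H2-D1, a class I heavy chain, stood at 41.2 and 19 CPM (1.08), and its partner B2m at 12.2 and 11.6 (0.07). Class I heavy chains differ between strains and are near copies of each other, so read assignment among them is uncertain.

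Contractile genes and targets of serum response factor were higher in 6 of 13 measured members and lower in 1, with a median of 0.53. Beside Acta2 these were Myl9, a myosin light chain (53.8 and 15.3 CPM, 1.75), Tagln (61.0 and 23.3 CPM, 1.35), Cnn2 (70.6 and 39.6 CPM, 0.82), Tagln2 (0.78) and the factor itself, Srf (31.3 and 15 CPM, 1.02). Tpm4, a tropomyosin, was lower (34.7 and 53.7 CPM, -0.61), and Actb stood at 0.12. Acta2 was uneven among cells: it was seen in 7.21% of thinned KO cells (6.31 to 8.20) and 0.817% of WT cells (0.169 to 2.37), and the top 1% of KO cells held 25.3% of its KO UMIs. Ipp, with a similar ratio, had 4.83% of its UMIs in the top 1%. Leaving out cells high in 2-cell-like or contractile markers gave log2 ratios of 1.97 for Acta2, 1.37 for Myl9 and 0.70 for Tagln.

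Of 22 germline genes 12 were measured, with 5 higher, none lower and a median of 0.27. Tex19.1, which restrains retrotransposons, stood at 180 and 81.4 CPM (1.14), Rhox6, an X-linked homeobox gene, at 44.6 and 13.3 (1.67), and the meiotic axis and synaptonemal proteins Hormad1 and Sycp1 at 21.1 and 10.1 (0.99) and at 30.4 and 14.6 (1.00). Rhox9, a near relative of Rhox6, stood at 0.71, and reads between them may be shared. Ddx4 and Mael, of the piRNA pathway, stood at -0.14 and -0.06. Below the minimum, Stra8, an inducer of meiosis, stood at 13 and 2.09 CPM (2.18, 1.6 to 2.74).

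Metallothioneins split by member. Mt2 and Mt1, which bind zinc and copper, stood at 1008 CPM in KO (1000 to 1016) and 428 in WT (412 to 444), a log2 ratio of 1.23, and at 2102 and 1128 CPM (0.90), while Mt3 stood at 19.3 and 44.5 CPM (-1.17). Of the 16 members of the metallothionein and oxidative stress list 4 were higher and 2 lower (median 0.18). Hmox1 (haem oxygenase) stood at 0.69, Gpx1 at 0.64 and Srxn1 (sulfiredoxin) at -0.63. In ESCs Mt1 stood at -0.04, Mt2 at 0.22 and Mt3 at -1.19.

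Lipid genes were mostly close to WT. Cholesterol synthesis had 1 of 23 higher (Nsdhl, 45.1 and 28.5 CPM, 0.65) and none lower (median -0.01), fatty acid synthesis 2 of 14 higher and 1 lower (median -0.02), and fatty acid oxidation 1 of 14 higher and none lower (median -0.08). The desaturase Fads1 stood at 45.5 and 28.1 CPM (0.67), malic enzyme Me1 at 17.7 and 29.1 (-0.69) and Acads, the short-chain acyl-CoA dehydrogenase, at 65.5 and 41.6 (0.64). Among 6 measured apolipoproteins and lipid carriers (median 0.27) Apoc2 was higher and Apoa2 lower, the latter at 3.29 and 19 CPM (-2.22, -2.51 to -1.92). Apoe stood at 402 and 342 CPM (0.23).

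Imprinted genes moved singly, with 2 of 17 higher, 2 lower and a median of -0.22. Peg3, a paternally expressed zinc finger gene, had Poisson intervals of 58.8 to 62.8 CPM in KO and 134 to 153 CPM in WT (-1.22, -1.33 to -1.12) and Ndn at 7.24 and 13.7 (-0.83), while the amino acid transporter Slc38a4 stood at 87.2 and 40.8 (1.08) and Zrsr1 at 27.9 and 14.8 (0.87). In the Myc, Lin28 and Hmga list 1 of 10 was lower, Lin28b at 16.1 and 24.9 CPM (-0.60, inside the limit under 6 of 16 other settings), and none higher (median -0.16). Epithelial genes had Cldn4 higher (16.6 and 8.36 CPM, 0.91) and Podxl lower (8.69 and 16.4, -0.85) among 14 measured (median 0.01), and E-cadherin (Cdh1) stood at -0.16. The 8 measured basement membrane genes lay within the limit (median 0.19).

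Among 79 measured ribosomal protein mRNAs 73 lay below 0, 7 were lower by 1.5-fold and none was higher, with a median of -0.08. Rpl29 stood at 313 and 964 CPM (-1.62), Rps18 at 1326 and 3004 (-1.18) and Rpl26 at 1296 and 2694 (-1.05). Processed pseudogenes of these genes take up reads, and Gm10260, one of the unnamed models passed over at the high end, had a log2 ratio of 3.52, so single ribosomal values are uncertain. Thinned KO cells held a median of 1039 ribosomal protein UMIs and WT cells 1180.

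Markers of the labelled cells and of other cell types were summed per class. All 5 epiblast markers were present, with summed levels of 1806 CPM in KO and 1552 in WT, and the 4 EpiLC markers summed to 954 and 1109, so the markers of the labelled cell type were present. The 8 feeder fibroblast markers summed to 11.1 and 6.91 CPM, with Col3a1, Lum, Postn and Pdgfra at 0 in WT. The 9 primitive endoderm markers summed to 145 and 117, the 5 mesendoderm markers to 8.10 and 10.6, and the 6 trophoblast markers to 17.8 and 18.7. The 9 markers of 2-cell-like cells summed to 8.11 and 2.41 CPM, the 4 of primordial germ cells to 40.5 and 14.1, with 2 of the 4 at 10 CPM or more in KO, and the 5 contractile ones to 152 and 49.5, with 4 of the 5 at 10 CPM or more in KO and 2 in WT. None of the 12 streak and mesendoderm genes reached 10 CPM (summed 20.4 and 33.0), and of 8 neuroectoderm genes Nes did, at 15.1 and 26.2 CPM (-0.76). Removing cells high in 2-cell-like or contractile markers left 2739 KO cells. The log2 ratio of Platr31, a noncoding transcript with 75.1% of its KO UMIs in the top 1% of cells, then went from 2.35 to 0.75, that of Tagln from 1.35 to 0.70 and that of Acta2 from 2.98 to 1.97. Each of the 125 named genes past 1.5-fold was still past it, and the part of these cells in their ratios was not tested further.

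Gene lists that the study had drawn from bulk RNA-seq of the same genotypes were looked up in these cells. Of 553 measured genes of the list of bulk increases at 48 h, 232 (42.0%) were higher here and 15 (2.71%) lower, with a median of 0.51. Of 291 measured genes of the list of bulk decreases, 77 (26.5%) were lower and 4 (1.37%) higher (median -0.33). Of 499 genes that the study assigned to Cnot8-dependent degradation, 151 (30.3%) were higher and 13 (2.61%) lower (median 0.37), and of 170 naïve regulatory network genes 62 (36.5%) and 5 (2.94%) (median 0.45). These lists were chosen on the study's own lines and are not independent evidence of direction. Single genes could differ from the totals. The paper names Nanog and Klf4, with Esrrb, Klf5, Nr5a2, Tcl1 and Tfcp2l1, as raised in KO EpiLCs at its later times. It also reports more Nanog protein. Here Nanog and Klf4 mRNA lay below 0 (-0.65 and -0.68), and the others named lay above 0. What the paper reports for Tob1 and Cnot7 is given above, beside their values here.

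Transcripts of chromosome 16 stood apart from all other chromosomes. Of its 276 measured genes 235 lay below 0, 39 were lower by 1.5-fold and 4 higher, with a median log2 ratio of -0.30. Medians of the other autosomes ran from 0.02 to 0.14, and that of the X chromosome was -0.01. All 7 windows of 15 Mb along the chromosome had negative medians, from -0.25 to -0.51. The median cell drew 2.43% of its UMIs from chromosome 16 in the KO class (5th to 95th percentile 2.2 to 2.91) and 3.39% in the WT class (2.91 to 3.69).

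Few cells crossed between these ranges. At the midpoint of 2.91%, 145 of 2977 KO cells (4.87%) lay at or above and 19 of 368 WT cells (5.16%) below. In the ESC library the median was also -0.30 (270 genes, 209 below 0), and the corresponding shares of cells were 4.38% and 5.30%. DNA copy number was not measured, and whether the shift belongs to the KO line or the WT line cannot be told from a ratio. Without chromosome 16, 500 genes were higher and 244 lower, and 8 of the 220 genes named by the rule lie on it.

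**Figure D5:**
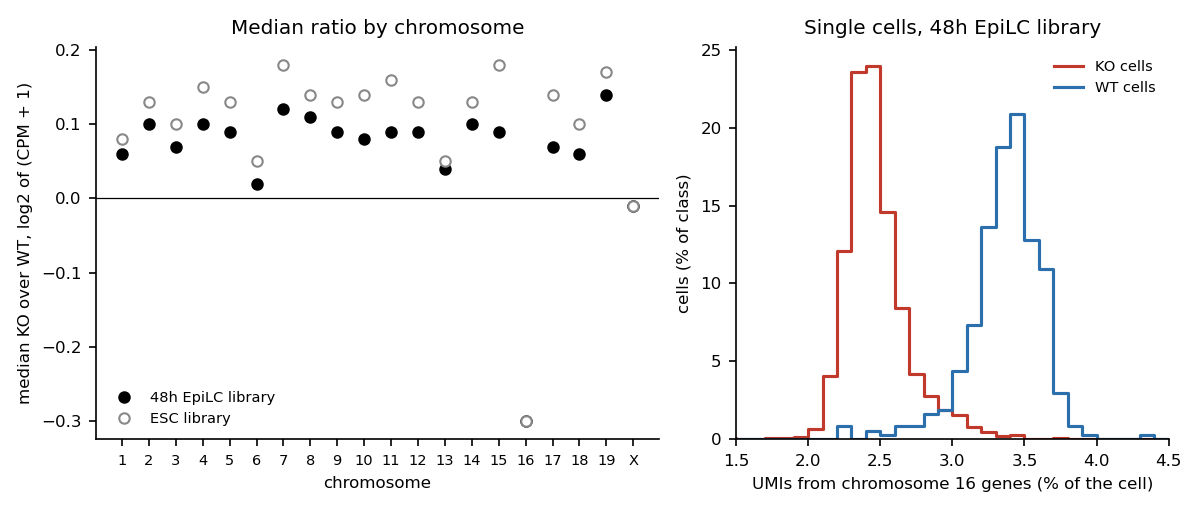
Median log2 ratio of KO over WT by chromosome (left, filled points for the 48h-EpiLC library and open points for the ESC library), and the share of UMIs from chromosome 16 per cell (right, percent) as the share of each class in the 48h-EpiLC library. Chromosome 16 lies at -0.30 in both libraries, and the KO and WT cells form separate peaks with medians of 2.43% and 3.39%.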

How the data were processed

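Each library was made with 10x Genomics 3′ chemistry from WT and Cnot8 KO cells mixed in equal numbers. The deposited matrices hold raw counts, UMIs of each gene in each barcode called as a cell. The submitters' processing notes name mm10, Cell Ranger 3.0.2 and Seurat 4, and the authors had added tdTomato to the reference. Whether counting used strand was not stated, and no correction for free RNA or doublets is stated. No doublet caller was run, and cells with both tags were outside the classes. In the ESC library 158 cells with at least 5 UMIs of feeder fibroblast markers were left out.

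UMIs were summed per class and scaled to CPM (Python 3.11.15, numpy 2.4.6, scipy 1.17.1). Genes needed a mean of 10 CPM, a pseudocount of 1 CPM was added, and 1.5-fold marked a gene as higher or lower. CPM carry exact Poisson intervals, ratios exact binomial intervals conditional on both counts, and shares of cells Clopper-Pearson intervals, all for counting error only. TMM factors came from edgeR 4.0.16 in R 4.3.3. Genes were named as the 20 highest and 20 lowest ratios with at least 20 CPM in 1 class, leaving out tag genes and unnamed models, the naïve, core, formative and Ccr4-Not members with at least 5 CPM in a class, and, in each other of the 41 lists, up to 4 members with at least 10 CPM in 1 class and the largest absolute ratio. Other list members given in the text were chosen after their values were seen. Promoters and positions were from RefSeq GRCm38.p6 and GENCODE M21. The summing and interval steps were tested on simulated data. The members and lists were chosen with earlier results of these data known. A few genes named by the rule are not reported here.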

Additional observations from a re-analysis of the deposited data

Results flagged for a closer look

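Genes of the lists were looked up for opposite directions at the 2 stages, each past 1.5-fold. Chac1 had a log2 ratio of KO over WT of -0.86 in 48h-EpiLCs and 1.06 in ESCs (0.52 to 1.6), where it stood at 7.22 CPM in KO and 2.94 in WT, on 18 WT UMIs and below the 10 CPM minimum. Id3 had -0.89 in 48h-EpiLCs and 0.91 in ESCs (0.71 to 1.12). In 48h-EpiLCs Chac1 lay inside 1.5-fold under 2 of 16 other settings and Id3 under 1, each reaching -0.38. Each stage was 1 library, so the difference was not tested. It could as well belong to the libraries or to their culture media as to the stages.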

How the results depend on the processing

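No paired analysis was possible because the classes came from 1 library and carry no replicate numbers, and for the same reason no replicate could be left out. The counts of 504 higher and 283 lower genes became 1629 and 821 with no filter on low CPM, 236 and 110 with cells of at least 20000 UMIs and a WT class without Y-linked UMIs, and 136 and 63 at 2-fold. The naïve median of 0.52 became 0.90 with no filter. A WT class of at least 2 tdTomato UMIs, chosen after seeing the data, left 24 WT cells with 447289 UMIs. It gave 1158 higher and 725 lower genes and medians of 0.17 (naïve), 0.10 (core) and -0.06 (formative), and Psmb8 (-0.13), Wnt8a (1.62) and Sox3 (0.11) changed sign there. The causes were not tested beyond the smaller class. Of 125 named genes past 1.5-fold, 85 were past it under all 16 settings and 40 were inside it under at least 1 (Acads, Btg3, Ccnd2, Cdt1, Chac1, Cldn4, Dnmt3a, Eda2r, Elovl1, Fads1, Hmga2, Hmox1, Id1, Id3, Klf4, Ldha, Lin28b, Mcm6, Mdm2, Me1, Nanog, Ndn, Nes, Nsdhl, Phgdh, Podxl, Psmb8, Ptn, Sall2, Slc2a1, Sox3, Spry4, Suz12, Tcf7l1, Tet3, Wnt8a, Zfp57, Zic2, mt-Cytb, mt-Nd3). Among the 16, a minimum of 5 CPM and no filter on low CPM change only which genes are counted. Those settings could not move the ratio of a named gene. TMM factors moved the median of all genes from 0.07 to 0.03. Leaving out genes of chromosome 16 was also chosen after seeing the data. Class depth limits low genes, and WT cells above all.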
